A study of Drosophila melanogaster with 12 samples.

Results

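The homeobox genes of the Antennapedia complex are described here by *Pcl* binding in the sweet taste neurons of the fly. The 9 members were given as a list: 5 Hox genes (*lab*, *pb*, *Dfd*, *Scr* and *Antp*) and 4 homeobox genes that are not Hox genes (*zen*, *zen2*, *bcd* and *ftz*). All 9 were measured, out of 18119 annotated genes that could be tested. The complex lies at chr3R:6661427-6999228 of the dm6 genome (BDGP6), spans 337.802 kb between the outer ends of *lab* and *Antp*, and holds 817 GATC fragments. Binding was measured by targeted DamID (TaDa), in which a DNA adenine methyltransferase (Dam) fused to *Pcl* methylates GATC sites close to where *Pcl* sits, and the value of each fragment between neighbouring GATC sites is log2(*Dam::Pcl*/*Dam*), the ratio to unfused *Dam*.

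There were 3 *Dam::Pcl* samples from flies on a sugar diet (30% sucrose) and 3 from flies on a control diet (5% sucrose), each made from 300 pooled heads of male and female flies. All 6 carried the genotype *Gr5a;tubulinGAL80ts>UAS-LT3-Dam::Pcl*, so that *Dam::Pcl* was made under the promoter of the sweet receptor gene *Gr5a* once warming switched off the GAL80 repressor. By the labels, the diets ran from day 5 to day 6 at 20°C and the flies then stayed at 29°C for a further day. The sample titles say 4 days. The study's own text describes a longer diet and a slightly lower temperature for the warming. The unfused *Dam* samples, 3 per diet, entered as the denominators of the deposited ratios and carry the same genotype with *UAS-LT3-Dam* in the study's methods. The ratios hold no read counts, so depth is unknown. The labelled cell type could not be checked by expression, and the ratio averaged 0.19 ± 0.07 at *Gr5a* on the sugar diet and 0.23 ± 0.08 on the control diet (SD, n = 3 each).

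*Pcl* is an accessory subunit of Polycomb repressive complex PRC2, which methylates lysine residues of histone H3 and keeps developmental genes silent. The Hox complexes are its best known targets in flies, and are covered by broad Polycomb domains in cells where the Hox genes are off. Within the Antennapedia complex, the Hox genes set the identity of head and thoracic segments. The genes *zen*, *zen2*, *bcd* and *ftz* arose from Hox ancestors but act in the early embryo, in its outer membranes, its head to tail axis or its segmentation.

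Averaged across each gene span plus 1 kb at either end, 8 of the 9 members had a high *Pcl* level on both diets, and *zen* did not. The *zen2* window takes in part of a fragment outside the gene that reaches over the start of *pb*. That fragment had a mean of 3.98 over the 6 samples, while the median of the *zen2* fragments was 0.86. *Antp*, which directs leg-bearing thoracic identity, had the highest mean level over the 6 samples of the members, and *zen*, which specifies the extraembryonic tissue of the embryo, had the lowest. Among the 18119 genes the members stood at the 96.4th percentile or above on the sugar diet and the 96.7th or above on the control diet, apart from *zen* at 88.1 and 87.3. A level of the same kind over all genes had a median of -0.03 on the sugar diet and 0.04 on the control diet.

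Of the Hox genes, *lab*, which patterns the posterior head and part of the brain, had 2.32, 2.67 and 2.80 on the sugar diet and 2.75, 2.57 and 2.41 on the control diet. *pb*, which makes the mouthparts into a proboscis, had 2.31, 2.57 and 2.97 on the sugar diet and 2.56, 2.58 and 2.25 on the control diet. *Antp* had 2.76, 2.99 and 3.21 on the sugar diet and 2.96, 2.87 and 2.69 on the control diet. The diets overlapped at these 3 genes, and sugar replicate 1 was the lowest of its diet each time. *Dfd*, which patterns the mandible and maxilla, averaged 2.09 ± 0.29 on the sugar diet and 2.13 ± 0.23 on the control diet (SD, n = 3 each). *Scr*, which acts in the labial segment and its salivary glands, averaged 2.33 ± 0.28 on the sugar diet and 2.48 ± 0.18 on the control diet. The samples of the diets overlapped at both genes.

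Of the non-Hox genes, *ftz*, a pair-rule segmentation gene, had 2.57, 2.88 and 3.16 on the sugar diet and 2.50, 2.35 and 2.28 on the control diet. *zen* had 0.80, 0.47 and 0.81 on the sugar diet and 0.63, 0.68 and 0.59 on the control diet. Every sugar sample lay above every control sample at *ftz*, by a small margin between the closest samples, while at *zen* the sugar samples lay on both sides. *bcd*, the maternal gene that sets the anterior end of the embryo, averaged 1.89 ± 0.33 on the sugar diet and 1.95 ± 0.10 on the control diet. *zen2*, a duplicate of *zen*, averaged 2.21 ± 0.46 on the sugar diet and 2.03 ± 0.32 on the control diet, and its window shared 929 bp and 2 fragments with that of *pb*. The windows of *zen* and *bcd* shared 353 bp and 2 fragments.

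**Figure D1:**
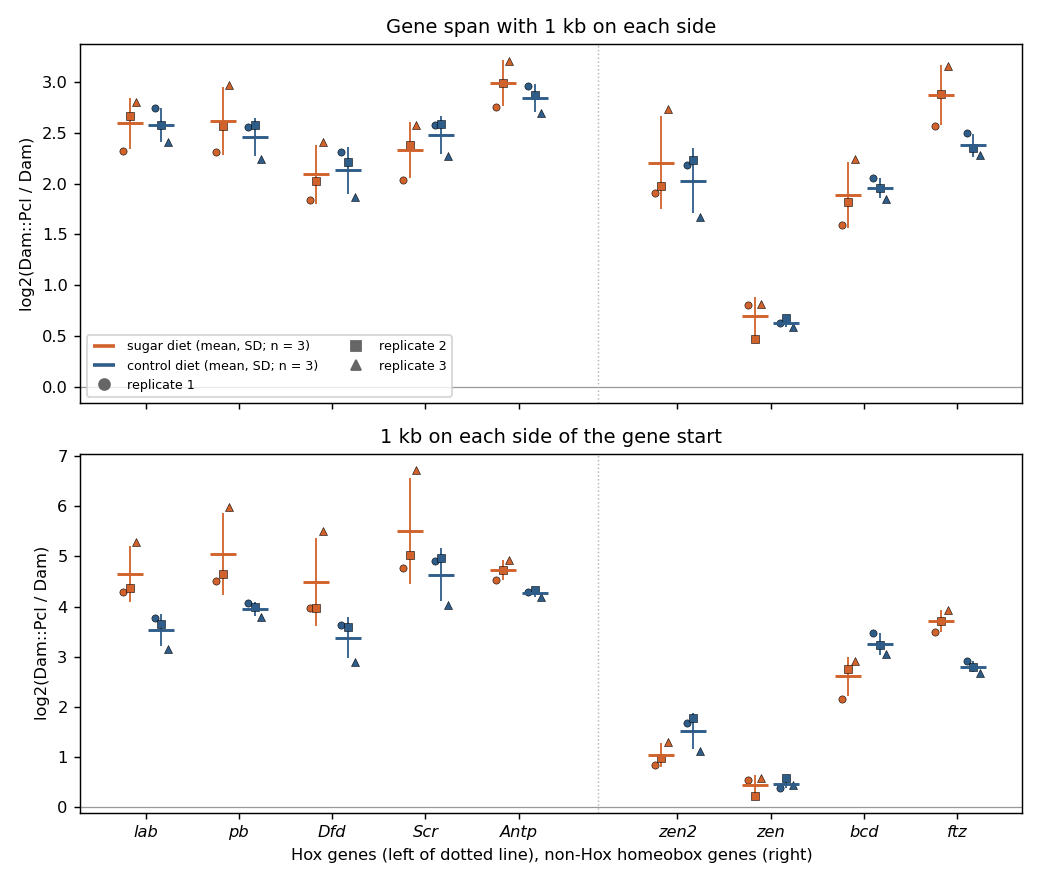
Level of each member in each sample as log2(*Dam::Pcl*/*Dam*), for the span plus 1 kb at either end (top) and for 1 kb on each side of the gene start (bottom). Points are samples, bars the mean with SD of 3 samples, sugar diet (orange) left of control diet (blue). *zen* lies lowest in both panels.

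As a description of the 2 groups of members, the 5 Hox genes averaged 2.52 ± 0.27 over the sugar samples and 2.50 ± 0.18 over the control samples (SD over 3 samples of the mean over genes). The 4 non-Hox genes averaged 1.91 ± 0.28 on the sugar diet and 1.75 ± 0.13 on the control diet. The Hox genes were higher in all 6 samples, by 0.53, 0.74 and 0.56 in the sugar samples and by 0.79, 0.76 and 0.70 in the control samples. Without *zen* the gap was 0.20 ± 0.11 on the sugar diet and 0.38 ± 0.01 on the control diet. *ftz* had a higher mean level over the 6 samples (2.62) than every Hox gene but *Antp* (2.92). This order did not hold on the control diet alone. There *ftz* (2.38) lay below *lab* (2.58), *Scr* (2.48), *pb* (2.46) and *Antp* (2.84). *zen2* (2.12) and *Dfd* (2.11) were closer to each other over the 6 samples than the spread between replicates.

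A peak was counted as common when it was called in all 3 replicates of a diet, and 6.55% of all genes had a common peak of either diet within 1 kb. Common peaks met 8 of the 9 members: all 5 Hox genes, *zen2*, *bcd* and *ftz*. They covered 53.4% of the *lab* window on the sugar diet and 60.7% on the control diet. *Antp* carried 16 common peaks on the sugar diet and 17 on the control diet, which covered 48.5% and 52.0% of its window. The window of *ftz* was covered to 54.0% by its common peak on the sugar diet and to 29.9% on the control diet, and that of *bcd* to 19.7% by 2 peaks on the sugar diet and to 21.6% by 1 peak on the control diet. No peak of any of the 6 samples met *zen*. Its nearest common peak lay 2818 bp to the left on both diets, and to the right it lay 3147 bp away on the sugar diet and 5058 bp away on the control diet.

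Most fragments of *lab*, *ftz* and *Antp* carried signal, and single fragments stood well above the rest of their gene. The highest fragment of *Antp*, 1071 bp at chr3R:6958177-6959247 over an internal start site 40.858 kb from the outer start, had 7.50, 8.18 and 7.65 on the sugar diet and 8.11, 8.03 and 7.67 on the control diet. The highest fragment of *Scr*, 692 bp at chr3R:6848239-6848930, covers the inner start of the gene, which 4 of its transcripts use, and had 7.94, 8.50 and 8.09 on the sugar diet and 7.19, 7.11 and 7.33 on the control diet. The samples of the diets overlapped at the *Antp* fragment and did not at the *Scr* fragment, where the difference was 0.97 (SE 0.17, adjusted p = 0.0193). The highest fragment of *pb* lay 746.5 bp inside the gene (centre of the fragment) and averaged 6.85 ± 0.50 on the sugar diet and 6.96 ± 0.06 on the control diet. The highest fragments of *Dfd*, *zen2* and *zen* lay outside the gene, and that of *zen2* reached over the start of *pb*. At *zen* the fragment had a low level, at 1.37 ± 0.11 on the sugar diet and 1.13 ± 0.06 on the control diet. Of the 18 fragments at *zen*, 1 had a mean over the 6 samples above 1. The count was 6 of 17 at *zen2* and 10 of 21 at *bcd*. It was 60 of 90 at *Scr*, 24 of 35 at *Dfd* and 60 of 76 at *pb*. The shares were highest at *Antp* (179 of 204), *lab* (47 of 54) and *ftz* (12 of 14).

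**Figure D2:**
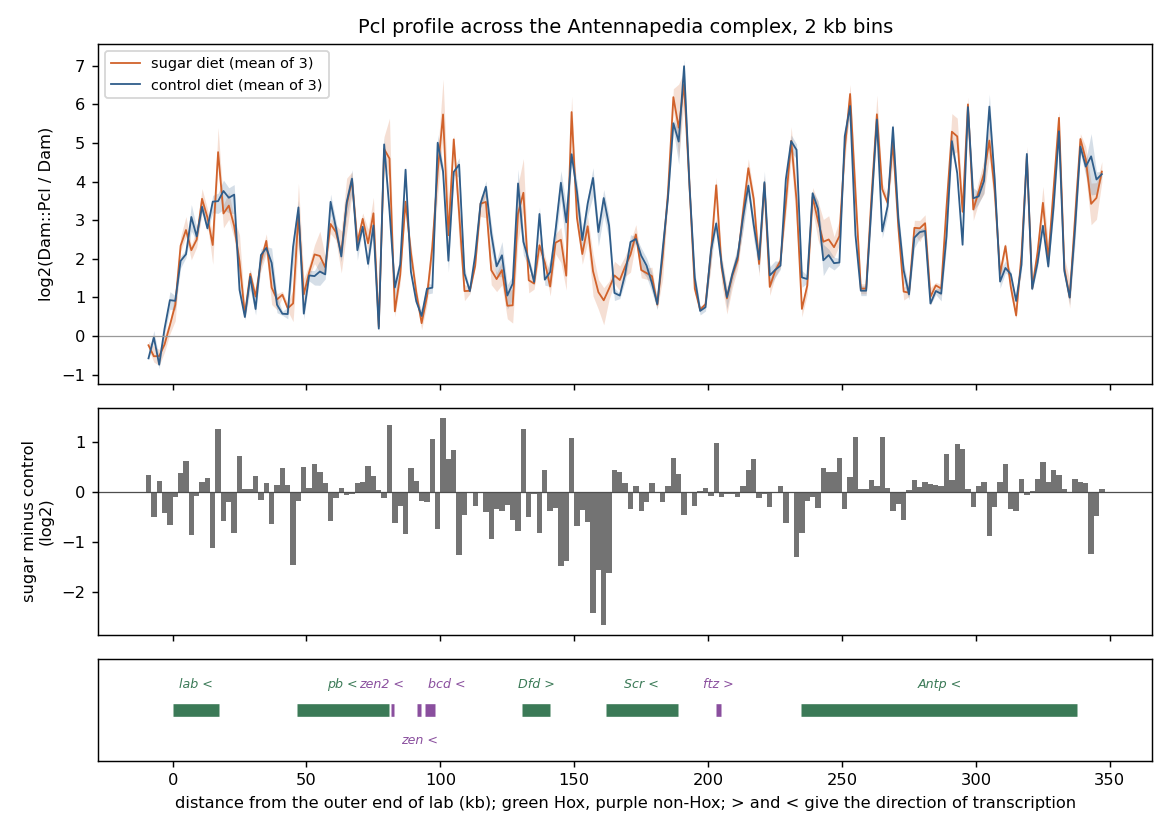
Profile across the Antennapedia complex in bins of 2 kb: mean log2(*Dam::Pcl*/*Dam*) of each diet with the range of its 3 samples shaded (top), the difference of the means, sugar minus control (middle), and the positions of the 9 members (bottom), all against distance from the outer end of *lab* in kb. The diets share most of their tall stretches. The level drops at *zen* and in other places, among them a bin within *pb*, and the deepest fall lies between *Dfd* and *Scr*.

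The comparison of the diets asks whether *Pcl* binding at these genes moved on the sugar diet. Differences, sugar minus control, were fitted with limma over all 18119 genes and adjusted by Benjamini-Hochberg, with an adjusted p under 0.05 as the threshold, and the p-values measure the spread between these 3 and 3 samples. Over the gene spans 48.0% of all genes passed (22.3% of genes rose and 25.7% fell on the sugar diet), and 28.2% had all 3 sugar values above all 3 control values. Of the 9 members, 1 passed and was higher (*ftz*), 0 were lower, and 1 had separate groups in that direction. *ftz* rose by 0.49 on the log2 scale (SE 0.16, adjusted p = 0.0482). The other 8 members had differences between -0.15 (*Scr*, SE 0.17, adjusted p = 0.485) and 0.18 (*zen2*, SE 0.28, adjusted p = 0.628). The median difference of the members was 0.06, and that of all genes -0.01.

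The *ftz* call held in 5 of 19 alternatives, with adjusted p between 0.00450 and 0.893. It was lost without any library but sugar replicate 1, with adjusted p between 0.0754 and 0.125 and a difference between 0.35 and 0.56. Signal over peaks shared by both diets averaged 4.01, 4.39 and 4.50 in the sugar samples and 3.91, 3.83 and 3.74 in the control samples. Scaled to the same mean over those peaks, 8 of the 9 members lay below 0, and *lab* (-0.29), *Scr* (-0.43) and *Antp* (-0.20) were called lower, and quantile normalization also put 8 members below 0.

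Close to the gene starts the members differed more between the diets. In windows of 1 kb on each side of the annotated gene start, the outermost 5′ end of the gene, *lab* had 4.29, 4.37 and 5.28 on the sugar diet and 3.77, 3.65 and 3.16 on the control diet. *ftz* had 3.50, 3.71 and 3.92 on the sugar diet and 2.91, 2.80 and 2.69 on the control diet. *Antp* had 4.53, 4.73 and 4.92 on the sugar diet and 4.28, 4.34 and 4.18 on the control diet. At all 3 every sugar sample lay above every control sample. Of the 17962 genes whose starts were tested, 21.7% were called higher and 23.9% lower, and of the 9 members 3 were called higher and 0 lower. The rise was 1.12 at *lab* (SE 0.32, adjusted p = 0.0347), 0.91 at *ftz* (SE 0.13, adjusted p = 0.00450) and 0.46 at *Antp* (SE 0.11, adjusted p = 0.0228). The median difference was 0.87 over the 9 members and 0 over all starts.

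The other Hox starts had differences of like size that did not pass. *pb* had 4.51, 4.65 and 5.99 on the sugar diet and 4.07, 3.99 and 3.79 on the control diet, a difference of 1.10 (SE 0.41, adjusted p = 0.0770). *Dfd* had 3.98, 3.98 and 5.50 on the sugar diet and 3.64, 3.58 and 2.90 on the control diet, a difference of 1.11 (SE 0.48, adjusted p = 0.111). *Scr* had 4.78, 5.02 and 6.72 on the sugar diet and 4.91, 4.97 and 4.03 on the control diet, a difference of 0.87 (SE 0.58, adjusted p = 0.269). Sugar replicate 3 was far above its 2 partners at all 3 genes, and the diets overlapped at *Scr*. *bcd* ran the other way, with 2.16, 2.75 and 2.91 on the sugar diet and 3.47, 3.24 and 3.05 on the control diet, a difference of -0.65 (SE 0.22, adjusted p = 0.0622). Every sugar sample lay below every control sample there. The start of *zen2* had a difference of -0.48 (SE 0.22, adjusted p = 0.123) and that of *zen* of -0.02 (SE 0.12, adjusted p = 0.910).

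Single libraries decided some of these calls. Without sugar replicate 3, *pb* was called higher (0.63, adjusted p = 0.0172) and *bcd* lower (-0.80, adjusted p = 0.0494), which made 5 calls. Without sugar replicate 2, control replicate 1 or control replicate 2, *ftz* was the 1 member called. *lab* and *Antp* lost the call without any 1 of these 3 libraries or control replicate 3, with adjusted p of 0.0514 to 0.0913 at *lab* and 0.0555 to 0.0664 at *Antp*. Scaled to the mean over shared peaks, the *Antp* start had a difference of -0.06 (adjusted p = 0.561), and corrected for GC content the *ftz* start had 0.43 (adjusted p = 0.0806) and the *lab* start 0.65 (adjusted p = 0.138). The start of *ftz* kept its call without each library in turn.

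The starts of *bcd* and *zen2* were called lower under each of the 3 other scalings, which turned the balance of member calls. With quantile normalization 2 members were called higher (*lab* and *ftz*) and 2 lower, scaled to the mean over shared peaks 1 was higher (*ftz*) and 2 lower, and scaled by the median absolute deviation 0 were higher and 2 lower. The adjusted p was 0.00255, 0.00471 and 0.0138 at *bcd* and 0.0202, 0.0468 and 0.0105 at *zen2*, in the same order. *zen2* was also called lower without control replicate 3 (difference -0.68, adjusted p = 0.0300). Corrected for GC content, *zen* was called lower (-0.40, adjusted p = 0.0362) and *Antp* higher.

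**Figure D3:**
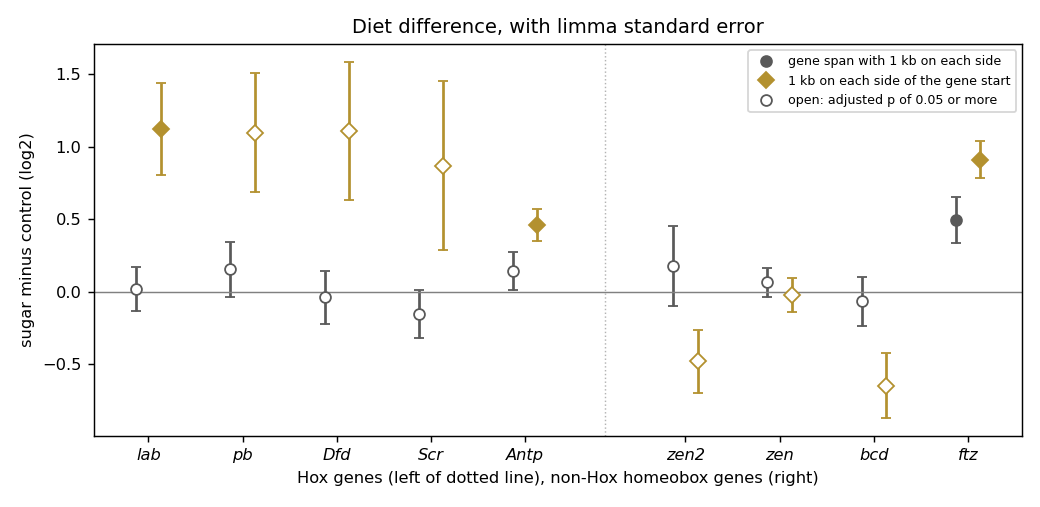
Difference between the diets, sugar minus control, on the log2 scale with its standard error from limma, for spans plus 1 kb at either end (circles) and for 1 kb on each side of the gene start (diamonds). Filled symbols passed an adjusted p under 0.05: *ftz* for spans, and *lab*, *Antp* and *ftz* for starts, while *bcd* and *zen2* lie below 0 at their starts.

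Genes with several starts were not uniform. The inner start of *Scr*, 1.476 kb from the outer one, had a higher level, at 6.22 ± 0.29 on the sugar diet and 5.50 ± 0.18 on the control diet, and the groups did not overlap. The *Antp* start 40.858 kb inside the gene averaged 5.90 ± 0.20 on the sugar diet and 5.77 ± 0.19 on the control diet, and the one 66.388 kb inside averaged 2.17 ± 0.17 on the sugar diet and 2.33 ± 0.35 on the control diet, and the groups overlapped at both. The inner *lab* start, 15.136 kb inside the gene, had a low level of 1.25 ± 0.18 on the sugar diet and 1.10 ± 0.10 on the control diet.

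Differences of opposite sign lay side by side within single members. Fitted fragment by fragment, 13.2% of the 373710 fragments of the genome were called higher and 15.5% lower. In the complex, 154 of 817 were called higher (18.8%) and 79 lower (9.67%). On the whole arm 3R the shares were 14.5% higher and 14.2% lower. Quantile normalization between samples turned the balance in the complex to 94 higher and 191 lower, and scaling by the median absolute deviation turned it to 41 and 159. Corrected for GC content, 185 were higher and 78 lower. Neighbouring fragments are not independent, and the samples of a diet may share their *Dam* denominator, whose spread the test then leaves out.

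At *ftz*, 5 of 14 fragments were called higher and 2 lower. The fragment just upstream of the start, chr3R:6863957-6864304, had 3.33, 3.25 and 4.01 on the sugar diet and 1.90, 1.76 and 1.84 on the control diet (difference 1.70, SE 0.23, adjusted p = 0.0114). The fragment over the start and the coding sequence, chr3R:6864305-6865063, was the highest of the gene and had 5.41, 5.71 and 5.74 on the sugar diet and 4.09, 3.89 and 3.95 on the control diet (difference 1.65, SE 0.11, adjusted p = 0.00447). A fragment beyond the 3′ end, chr3R:6867041-6867331, had 1.28, 2.08 and 1.51 on the sugar diet and 2.94, 2.61 and 2.52 on the control diet (difference -1.07, SE 0.25, adjusted p = 0.0405). None of these 3 fragments had overlapping diets. With no flank, *ftz* had a difference of 1.13 (adjusted p = 0.00536), and with 2 kb on each side it had 0.13 (adjusted p = 0.605).

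At *bcd*, 6 of 21 fragments were called higher and 3 lower. A coding fragment, chr3R:6757686-6758136, had 3.51, 2.89 and 4.72 on the sugar diet and 1.28, 1.48 and 2.00 on the control diet (difference 2.12, SE 0.54, adjusted p = 0.0475). Upstream, the 22 bp fragment chr3R:6760135-6760156 had 1.21, 3.14 and 3.10 on the sugar diet and 6.98, 6.84 and 6.07 on the control diet (difference -4.15, SE 0.65, adjusted p = 0.0157). The diets did not overlap at either fragment, and they separated in opposite directions at the body and the upstream side of the gene. The highest *bcd* fragment, over the start at chr3R:6759426-6760134, was a common peak on the control diet and not on the sugar diet, with a difference of -1.80 (SE 0.33, adjusted p = 0.0220). Over the *bcd* span with no flank, every sugar sample lay above every control sample, at 1.81 ± 0.33 on the sugar diet and 1.29 ± 0.10 on the control diet.

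*Dfd* held the largest rise of the complex past the threshold. Its coding fragment chr3R:6792307-6792836 had 4.66, 4.49 and 6.11 on the sugar diet and 2.10, 2.00 and 2.30 on the control diet (difference 2.95, SE 0.49, adjusted p = 0.0174). About a kilobase further in lies chr3R:6793405-6793588, classed as intron because exons do not fill most of it, so part of it may be exon. It had 0.17, 1.20 and 0.47 on the sugar diet and 3.39, 3.48 and 2.53 on the control diet (difference -2.52, SE 0.40, adjusted p = 0.0163). Neither fragment had overlapping diets. *Antp* had the most calls, with 54 of 204 fragments higher and 19 lower, followed by *Scr* with 15 of 90 higher and 11 lower, *lab* with 16 of 54 and 5, and *pb* with 7 of 76 and 6. At *zen2*, 0 of 17 were higher and 2 lower, and at *zen* 0 of 18 were higher and 1 lower.

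**Figure D4:**
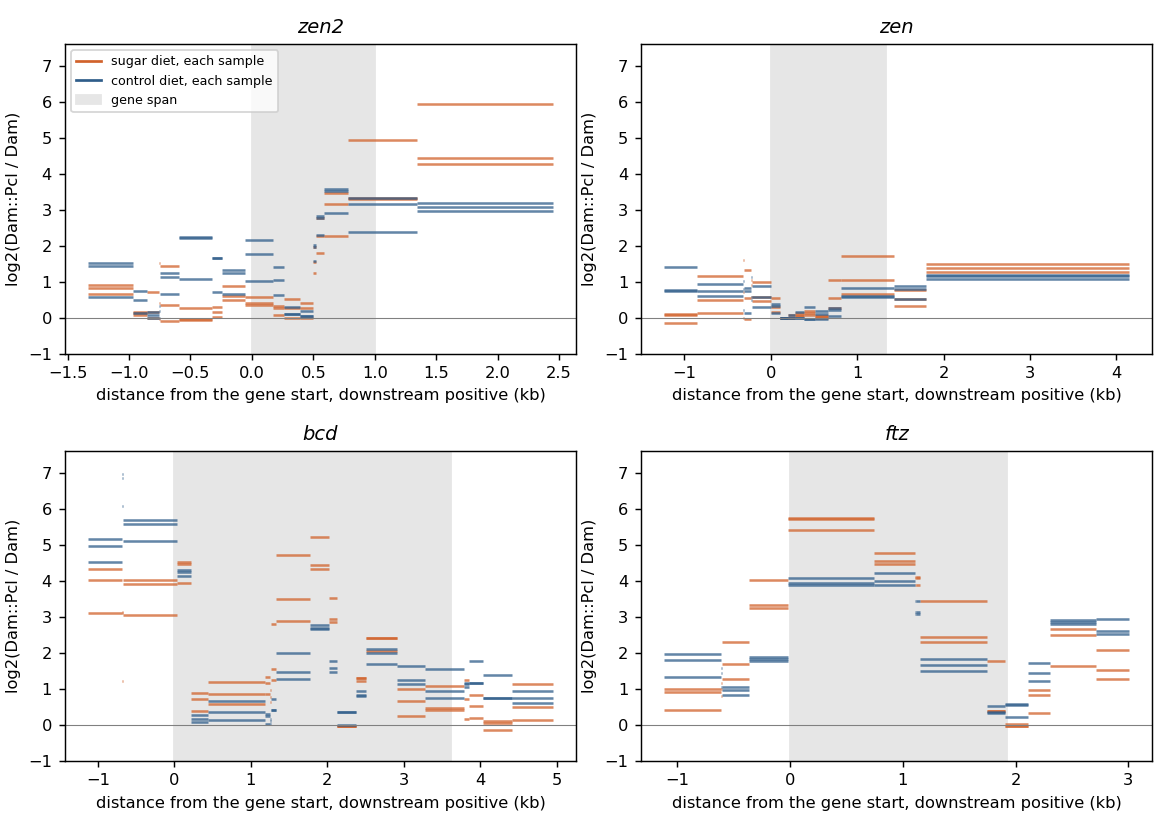
Log2(*Dam::Pcl*/*Dam*) of each GATC fragment in each sample at the 4 non-Hox members, against distance from the gene start in kb (downstream positive, gene span in grey); each line is 1 fragment in 1 sample, sugar diet orange and control diet blue. Of the 4 genes *zen* has the lowest signal, *ftz* is higher on the sugar diet over its start, and *bcd* is lower on the sugar diet upstream and higher inside.

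The fragments that rose and those that fell within a gene differed in base composition, which can be read from the sequences. The windows of 300 bases below are centred on those fragments of *ftz*, *bcd* and *Dfd*, in dm6 and on the plus strand (*bcd* is transcribed from the other strand). They hold 59% GC in the *ftz* window that rose and 38% in the one that fell, 56.7% and 34.3% at *bcd*, and 56.3% and 39.3% at *Dfd*. The *bcd* window that fell is centred on a fragment of 22 bp, so most of its bases belong to the neighbouring fragments, of which the left one was called lower and the right one was not (difference -1.07, adjusted p = 0.104). The *Dfd* fragment that fell fills 184 of its 300 bases. Capitals mark GAGAG (or its reverse complement CTCTC), a core site of the GAGA factor, and GCCAT (or ATGGC), the core site of Pleiohomeotic, proteins that bind Polycomb response elements in flies.
ftz higher on sugar, chr3R:6863981-6864280: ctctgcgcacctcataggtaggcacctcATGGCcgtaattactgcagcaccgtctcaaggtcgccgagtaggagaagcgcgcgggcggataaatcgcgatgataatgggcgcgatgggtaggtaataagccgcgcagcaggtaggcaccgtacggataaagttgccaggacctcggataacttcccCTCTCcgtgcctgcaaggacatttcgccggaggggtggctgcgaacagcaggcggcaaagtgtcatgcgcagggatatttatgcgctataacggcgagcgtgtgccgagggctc
ftz lower on sugar, chr3R:6867036-6867335: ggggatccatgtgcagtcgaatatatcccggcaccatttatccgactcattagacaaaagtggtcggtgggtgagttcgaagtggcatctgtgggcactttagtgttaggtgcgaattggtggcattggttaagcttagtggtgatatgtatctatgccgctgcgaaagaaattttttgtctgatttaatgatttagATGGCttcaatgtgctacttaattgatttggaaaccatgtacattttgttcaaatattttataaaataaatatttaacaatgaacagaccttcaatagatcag
bcd higher on sugar, chr3R:6757761-6758060: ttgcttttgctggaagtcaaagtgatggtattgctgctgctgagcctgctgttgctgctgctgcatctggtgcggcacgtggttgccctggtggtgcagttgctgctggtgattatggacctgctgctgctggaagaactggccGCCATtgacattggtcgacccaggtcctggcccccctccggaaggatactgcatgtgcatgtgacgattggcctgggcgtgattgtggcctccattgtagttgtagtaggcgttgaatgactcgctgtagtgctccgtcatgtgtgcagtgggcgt
bcd lower on sugar, chr3R:6759996-6760295: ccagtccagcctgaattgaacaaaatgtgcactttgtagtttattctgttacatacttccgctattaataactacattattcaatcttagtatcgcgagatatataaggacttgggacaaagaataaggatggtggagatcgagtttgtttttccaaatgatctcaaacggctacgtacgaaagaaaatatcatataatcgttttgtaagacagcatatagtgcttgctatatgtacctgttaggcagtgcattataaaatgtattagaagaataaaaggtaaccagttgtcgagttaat
Dfd higher on sugar, chr3R:6792422-6792721: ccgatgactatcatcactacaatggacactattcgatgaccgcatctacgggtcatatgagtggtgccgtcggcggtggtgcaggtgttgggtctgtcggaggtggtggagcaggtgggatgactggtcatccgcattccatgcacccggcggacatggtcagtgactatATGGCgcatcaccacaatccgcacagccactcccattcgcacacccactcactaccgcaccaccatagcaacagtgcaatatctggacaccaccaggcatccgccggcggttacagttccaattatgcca
Dfd lower on sugar, chr3R:6793347-6793646: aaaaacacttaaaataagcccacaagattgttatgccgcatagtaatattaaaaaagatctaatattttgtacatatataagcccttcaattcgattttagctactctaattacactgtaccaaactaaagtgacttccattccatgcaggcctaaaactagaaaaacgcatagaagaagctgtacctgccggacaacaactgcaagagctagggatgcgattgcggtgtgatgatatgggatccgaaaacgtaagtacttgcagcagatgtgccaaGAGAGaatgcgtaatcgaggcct

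A run of CAG-like repeats, read as ctg on the plus strand, fills part of the *bcd* coding window. Either motif is common in windows of this length. On both strands, 31.1% of the windows centred on all fragments of the genome hold GAGAG and 48.1% hold GCCAT, and the shares are 32.3% and 50.3% over fragments of common peaks. Among the windows at the highest fragment of each member, 6 of 9 hold GAGAG and 5 of 9 hold GCCAT. The window at *Antp*, the highest of all, has 4 matches to GAGAG, and the one at *Dfd* has neither motif.

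Over the 817 fragments of the complex, the difference between the diets went with GC content (r = 0.48 across fragments, which share libraries and are not independent). Split by quartiles of GC content, in the group with the lowest (up to 37.1%), 12 of 205 rose and 54 fell, and in the group with the highest (from 50.4%), 60 of 178 rose and 3 fell. Fragments were classed as coding when coding sequence filled most of them, so fragments of other classes can hold some coding sequence. Coding fragments, with a median GC content of 56.6%, had 30 of 102 called higher (29.4%) and 0 lower. On the whole arm 20.2% of coding fragments were called higher and 5.88% lower. Intron fragments, at a median of 42.1%, had 76 of 362 called higher (21.0%) and 32 lower (8.84%), beside 11.2% and 17.6% on the arm. Noncoding exon fragments, at a median of 38.5%, had 11 of 47 called higher (23.4%) and 8 lower (17.0%), beside 11.1% and 32.1%. Fragments between genes, at a median of 41.3%, had 37 of 306 called higher (12.1%) and 39 lower (12.7%), close to the 12.8% and 14.3% of the arm. The same relation ran over all fragments of arm 3R (r = 0.39) and across all gene spans of the genome (r = 0.67), so it was not particular to the complex. Of the members, *ftz* had the highest GC content over its window, at 48.3%, and the others lay between 41.2% (*zen2*) and 46.0% (*zen*). Corrected for GC content, *ftz* had a difference of 0.21 (adjusted p = 0.364), and whether base composition had a part in its call was not tested further.

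**Figure D5:**
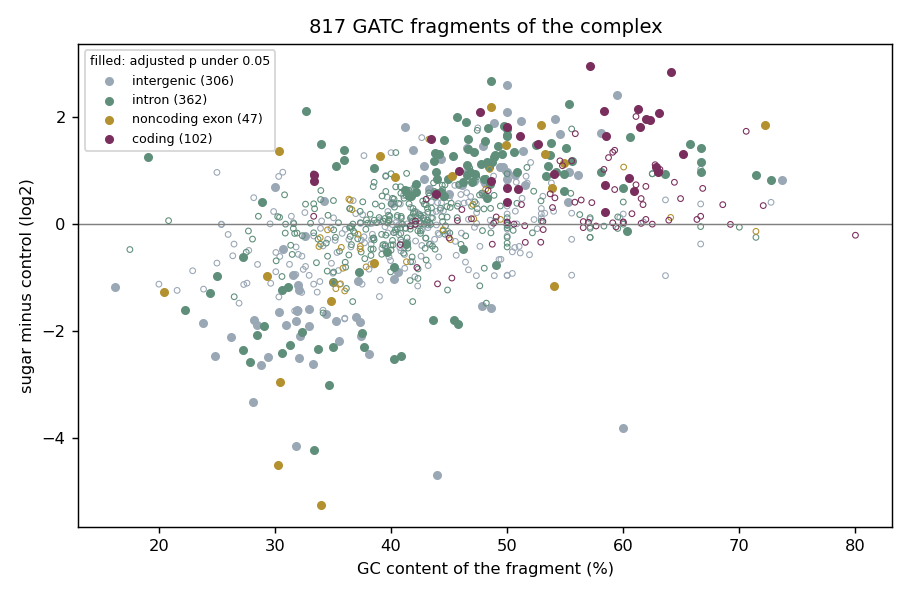
Difference between the diets, sugar minus control on the log2 scale, against GC content in percent for the 817 fragments of the complex, coloured by annotation class; filled points passed an adjusted p under 0.05. Coding fragments, those filled mostly by coding sequence, sit at high GC content and none of them fell past the threshold. Most called falls lie under 40% GC.

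The largest fall of the complex lay at the 3′ end of *Scr*. In a noncoding exon there, fragment chr3R:6823678-6823904 had -0.53, 0.31 and 0.90 on the sugar diet and 6.07, 5.99 and 4.34 on the control diet (difference -5.24, SE 0.65, adjusted p = 0.00997). The whole interval from *Dfd* to *Scr*, 20.691 kb that also holds the microRNA gene *mir-10*, had 1.97, 2.62 and 2.56 on the sugar diet and 3.58, 3.46 and 2.93 on the control diet. All sugar samples lay below all control samples there, which held for none of the other 7 intervals between neighbouring members. The *Scr* end of the interval carries copies of the lysine tRNA gene and of the 7SL RNA gene, at chr3R:6819894-6823035. Reads from copies of a gene may not be placed with certainty, so the values of this stretch are uncertain, but read placement was not tested. The fragment with the largest fall lies outside these copies. The called fragment with the next largest fall, chr3R:6822571-6823086 (difference -4.69), overlaps a 7SL copy and a tRNA copy.

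Other Hox genes and their partners give a scale for the members. The Hox genes of the bithorax complex, which set the identity of posterior thoracic and abdominal segments, all had a common peak: *Abd-B* averaged 4.08 ± 0.39 on the sugar diet and 3.91 ± 0.20 on the control diet, *abd-A* 3.45 ± 0.14 and 3.22 ± 0.17, and *Ubx* 2.99 ± 0.21 and 2.70 ± 0.10. Of these 3 genes 0 were called, beside 48.0% of all genes. A list of Hox cofactors and related homeobox or zinc finger genes held 8 genes (*exd*, *hth*, *tsh*, *tio*, *disco*, *disco-r*, *cad* and *eve*). Of these, 3 were called higher (*disco*, *cad* and *eve*) and 1 lower (*exd*), beside 22.3% of all genes called higher and 25.7% lower. *eve*, a pair-rule gene like *ftz*, had 4.12, 4.24 and 5.38 on the sugar diet and 3.15, 3.08 and 3.19 on the control diet, a rise of 1.44 (SE 0.34, adjusted p = 0.0193). *exd*, the Hox cofactor that is made in most cells, had -0.97, -0.79 and -0.85 on the sugar diet and 0.12, 0.18 and -0.08 on the control diet, a change of -0.95 (SE 0.09, adjusted p = 0.00205), and had no common peak. The diets did not overlap at either gene.

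By level over the 6 samples, the genes outside the complex nearest to the mean of the 5 Hox members were *oc*, *tey* and *Ref2*, at Euclidean distances of 0.23, 0.24 and 0.29 on the log2 scale. *oc* is a homeobox gene of head development. Nearest to the mean of the 4 non-Hox members were *amd*, *ham* and *lncRNA:CR32773*, at 0.19, 0.21 and 0.22.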

How the data were processed

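Per the study's methods, reads were filtered on quality and passed by the authors to damidseq_pipeline, which ran Bowtie2 against dm6 and gave a log2 ratio of *Dam::Pcl* over *Dam* per GATC fragment. The submitters' processing notes name Bowtie2 and BDGP6, and versions are not given in the sources used here. The deposited log2 ratios were used as they stand, on the arms of chromosomes 2 and 3 and on chromosomes 4 and X. The pipeline's scaling option and pseudocount, and which *Dam* sample divided which *Dam::Pcl* sample, are not stated. Where 1 sample stood at exactly 0, other samples of its diet were below 0 at 0% of fragments and samples of the other diet at 8.99% to 15.7%. The Dam-only profiles were not analysed here.

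Length-weighted means over Ensembl BDGP6 gene spans with 1 kb on each side were computed with Python 3.11.15, numpy 2.4.6 and pandas 2.3.3 for 18119 of 18164 genes, those with at least 2 fragments. The methods' DiffBind test needs reads, so limma 3.58.1 (R 4.3.3; lmFit and eBayes, sugar minus control) was used over all genes, all gene starts or all 373710 fragments. Peaks were called by find_peaks, as in the methods, rebuilt here with quantiles from 0.95 to 0.99, at least 2 consecutive fragments, 100 shuffles and FDR under 0.01. Sequences came from the RefSeq copy of the same assembly.

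The members and lists were chosen with earlier results of these data known. Named were the 9 members, the highest fragment of each, the fragments with the largest rise and fall in the complex and in the members whose sequences are shown, other genes of the complex by counts and extremes, the bithorax and partner genes, and the nearest genes by level. Fragments shown for their sequences, and a few genes and starts beside these, were chosen after their values were seen. Alternatives were other scalings, a GC correction, other windows, weights and thresholds, a replicate block, other spread models, peak rules and each replicate left out. Those for gene starts were added after seeing the data. On simulated gene spans, limma recovered 184 of 200 planted differences of 1 (92%) with 12 false calls among 18119 genes. The simulated noise was independent between genes and samples, with no shared *Dam* denominator and no shift linked to GC content or scaling. The simulation therefore checks the fit only, and does not measure how reliable the calls in these data are or how smaller differences fare.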

Additional observations from a re-analysis of the deposited data

How the results depend on the processing

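Without each replicate in turn, 0 to 1 members were called over gene spans (*ftz* without sugar replicate 1, *zen* without sugar replicate 2). The calls ran to 1 to 5 members over gene starts, 71 to 184 complex fragments and 6091 to 7639 genes. The Hox minus non-Hox level was 0.54 to 0.65 on the sugar diet and 0.73 to 0.78 on the control diet. Of the 8693 genes called, 4617 passed an adjusted p under 0.01, 242 passed treat at a fold of 1.5, and 3927 passed with the replicate block and GC correction.

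Members called over gene spans numbered 3 with quantile normalization (*lab*, *Dfd* and *Scr*, all lower), 3 scaled to shared peaks (lower) and 3 at gene starts. Scaled by the median absolute deviation, 1 was called (*Scr*, lower), and *ftz* was not. The number was 0 with the GC correction, 2 kb flanks, unweighted means, trend and robust eBayes, treat, or an adjusted p under 0.01. Replicate numbers did not pair the samples (r of same-numbered deviations -0.30, 0.21 and -0.21). With the replicate block, 0 members were called over spans, 1 over starts and 35 complex fragments, and with the block and GC correction 0 and 1.

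Median absolute deviation scaling gives values in units of each sample's deviation, not on the log2 scale. In order of quantile normalization, median absolute deviation scaling and shared-peak scaling, differences turned to -0.26, -1.86 and -0.29 at *lab*, -0.12, -1.21 and -0.14 at *pb*, -0.14, -1.58 and -0.20 at *Antp*, -0.024, -0.22 and -0.0097 at *zen*, and -0.036, -0.73 and -0.074 at *zen2*. With the GC correction, with or without the replicate block, they turned to 0.032 at *Dfd*, -0.13 at *zen* and 0.073 at *bcd*. With 2 kb flanks they turned to -0.016 at *lab* and -0.032 at *zen*, with no flank to -0.16 at *zen2* and 0.52 at *bcd*, unweighted to -0.039 at *pb*, 0.025 at *Dfd* and -0.23 at *zen2*, and at gene starts to 1.11 at *Dfd*, 0.87 at *Scr*, -0.021 at *zen* and -0.48 at *zen2*. Leaving out 1 replicate gave -0.085 to 0.16 at *lab*, -0.021 to 0.31 at *pb*, -0.20 to 0.087 at *Dfd*, -0.089 to 0.33 at *zen2* and -0.24 to 0.079 at *bcd*. The start of *Antp* turned to -1.46 with median absolute deviation scaling and -0.060 with shared-peak scaling, and that of *zen* ran from -0.092 to 0.096 without 1 replicate.

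Common peaks over at least 50% of the window left 3 members (*lab*, *Antp* and *ftz*), and quantiles from 0.90 added *zen* (9). The Hox minus non-Hox level, 0.61 on the sugar diet and 0.75 on the control diet, was 2.48 and 3.61 in those deviation units, and moved to 0.43 and 0.81 with no flank, 2.93 and 1.94 at gene starts and 0.83 and 0.80 unweighted, and on the control diet to 0.68 with the GC correction and 0.63 with 2 kb flanks. The causes were not tested. With 3 samples per diet and ratios without counts, neither depth nor the spread of the *Dam* denominators could be weighed.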

Other observations

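The complex holds 40 other annotated entries, some of them short noncoding stretches inside *mir-993* and *mir-10* that are counted beside those genes. Of the 11 protein-coding ones, 1 was called higher on the sugar diet (*Ccp84Ab*) and 1 lower (*CG34297*), beside 22.3% and 25.7% of all genes. The Ccp84A genes, a cluster of cuticle protein genes between *lab* and *pb*, averaged between 0.57 (*Ccp84Aa*) and 2.43 (*Ccp84Ac*) on the sugar diet and between 0.62 (*Ccp84Ab*) and 2.12 (*Ccp84Ac*) on the control diet, and *Ccp84Ac* was the 1 of 7 at a common peak. *Ccp84Ab* averaged 0.94 ± 0.11 on the sugar diet and 0.62 ± 0.09 on the control diet (SD, n = 3 each), a rise of 0.32 (SE 0.08, adjusted p = 0.0212). *Ccp84Aa* had the lowest mean level of the protein-coding genes over the 6 samples, at 0.62. *CG34297*, between *zen2* and *zen*, averaged 2.55 ± 0.15 on the sugar diet and 2.98 ± 0.12 on the control diet, a change of -0.43 (SE 0.10, adjusted p = 0.0187). *Ama*, the gene of a secreted immunoglobulin-family protein between *bcd* and *Dfd*, had both the highest level and the highest difference of these genes, with 3.73, 3.91 and 5.00 on the sugar diet and 3.30, 3.32 and 2.99 on the control diet. The diets did not overlap, and the difference of 1.01 (SE 0.35, adjusted p = 0.0599) did not pass the threshold. *Edg84A* had the lowest difference, -0.45 (SE 0.26, adjusted p = 0.207). *CG46458* lies within *Antp* on the same strand, so its values are not separate from those of *Antp*.

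Of the 29 noncoding entries, 0 were called higher and 7 lower, against 22.3% and 25.7% of all genes. These 7 are the 4 *tRNA:Lys-TTT* copies, the 2 7SL RNA copies and *lncRNA:CR44932*, and the tRNA and 7SL copies lie in the stretch whose values are uncertain. *lncRNA:CR44932* averaged 1.30 ± 0.35 on the sugar diet and 2.61 ± 0.30 on the control diet. The highest level was at *lncRNA:CR45559*, between *ftz* and *Antp*, at 5.22 ± 0.58 on the sugar diet and 5.54 ± 0.18 on the control diet. *mir-10*, a microRNA gene kept within Hox complexes across animals, averaged 4.26 ± 0.31 on the sugar diet and 4.14 ± 0.29 on the control diet.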
